A study of Mus musculus with 4 samples.

Results

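The 9 genes described here are Egfr, which encodes the epidermal growth factor receptor, 5 of its ligands (Tgfa, Btc, Hbegf, Ereg and Egf), the ligand sheddase Adam17, and the inhibitors Errfi1 and Lrig1. They were taken by symbol from the 31053 genes of the deposited matrix, and all 9 were found. What is asked of them is in which cells of colitis-driven colon tumours receptor, ligand and inhibitor were counted together when cells were set to 1 depth.

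The tumours grew in female C57BL/6 mice given 1 injection of the carcinogen azoxymethane (AOM, 12.5 mg/kg) and 3 cycles of 5 days of dextran sulphate sodium (DSS), at 2.5% in the first 2 cycles and 2% in the last. Mice were killed 30 days after the last DSS. The labels name 4 groups of 1 sample each: CD45+ immune cells and CD45- non-immune cells from Egfr fl/fl mice, and the same sorts from EgfrΔMYL mice, which lack Egfr in the myeloid lineage; every group received AOM and DSS. The Cre driver, the ages and the number of mice are not given in the sources used here. Tumours were digested with collagenase, stained for CD45 and EPCAM and sorted, and RNA was counted with a droplet method (10x Chromium, V3 chemistry) that tags polyadenylated RNA near its 3′ end. A 3′ tag need not tell a deleted allele from an intact one, so Egfr counts check no label.

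Binding of a ligand to EGFR pairs receptors, switches on their kinase and starts RAS-MAPK and PI3K-AKT signalling. The ligands are made as membrane-bound precursors that metalloproteases such as ADAM17 cut free. ERRFI1 (also called MIG6) binds the receptor's kinase and is itself induced by the signal, while LRIG1 is a membrane protein that lowers ERBB receptor levels and marks stem and progenitor cells of the gut. In the gut lining this system is known for its part in crypt growth and in repair after injury.

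The start sites of 4 of the genes, Egfr, Errfi1, Tgfa and Btc, are shown. Egfr and Errfi1 shared their highest epithelial level in 1 subset, the absorptive-like cells described further on. Most Tgfa and Btc UMIs lay in another, the Wnt-active cells, which held 48.3% of all epithelial UMIs. By level, Btc was highest in Wnt-active cells among the named epithelial subsets. The Tgfa level in absorptive-like cells was 1.01-fold that in Wnt-active cells (0.609 to 1.60), so Tgfa did not separate these subsets by level. The windows come from RefSeq on GRCm38.p6, the assembly of mm10, and run from 5′ to 3′ on the gene's strand. Each covers 250 bases and ends at the base before an annotated start. RefSeq windows were found for 7 of the 9 genes, 9 windows in all. Capitals mark matches, on either strand, to AP-1 (TGANTCA), TCF/LEF (CTTTGA) or SP1 (GGGCGG) motifs; the 3 motifs share no letters in these windows.
Egfr, chr11:16751953-16752202, plus strand: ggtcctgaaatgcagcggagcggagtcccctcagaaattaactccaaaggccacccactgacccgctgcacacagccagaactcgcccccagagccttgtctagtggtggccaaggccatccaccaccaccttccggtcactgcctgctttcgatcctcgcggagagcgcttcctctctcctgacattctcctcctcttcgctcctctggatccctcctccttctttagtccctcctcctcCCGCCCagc
Errfi1, first start, chr4:150853546-150853795, plus strand: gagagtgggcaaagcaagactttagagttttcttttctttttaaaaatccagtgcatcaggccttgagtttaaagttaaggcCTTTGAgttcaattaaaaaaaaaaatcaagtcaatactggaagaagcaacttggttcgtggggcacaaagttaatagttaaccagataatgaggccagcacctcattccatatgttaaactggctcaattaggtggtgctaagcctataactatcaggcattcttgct
Errfi1, second start, chr4:150854820-150855069, plus strand: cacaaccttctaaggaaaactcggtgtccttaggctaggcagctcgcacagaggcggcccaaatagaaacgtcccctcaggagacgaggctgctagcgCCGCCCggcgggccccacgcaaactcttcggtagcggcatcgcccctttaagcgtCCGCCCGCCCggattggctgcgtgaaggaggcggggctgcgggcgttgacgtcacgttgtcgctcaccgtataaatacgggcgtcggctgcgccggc
Tgfa, chr6:86194972-86195221, plus strand: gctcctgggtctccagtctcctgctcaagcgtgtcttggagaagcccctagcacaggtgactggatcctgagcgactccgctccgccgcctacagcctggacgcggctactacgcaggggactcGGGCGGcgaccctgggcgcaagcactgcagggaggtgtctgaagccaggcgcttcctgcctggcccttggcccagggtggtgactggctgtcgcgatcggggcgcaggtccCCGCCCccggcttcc
Btc, chr5:91402995-91403244, minus strand: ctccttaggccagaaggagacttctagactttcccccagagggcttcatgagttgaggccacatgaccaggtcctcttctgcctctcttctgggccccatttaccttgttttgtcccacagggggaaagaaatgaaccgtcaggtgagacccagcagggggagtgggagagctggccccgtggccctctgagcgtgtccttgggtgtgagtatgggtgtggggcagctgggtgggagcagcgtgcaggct

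Among all 32851 windows of this length, 6.75% held an AP-1 match, 13.8% a TCF/LEF match and 32.7% an SP1 match. None of the 9 windows held the AP-1 letters. The TCF/LEF letters occurred once, in the first Errfi1 window. SP1 letters were found once in Egfr, at 2 places in Tgfa, at 3 places in the second Errfi1 window, of which 2 overlap, and not in Btc. GC content was 60.8% for Egfr, 69.2% for Tgfa, 59.6% for Btc, and 38.0% and 64.8% for the Errfi1 pair, against a median of 52.4% over all windows. These matches describe the letters only.

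The matrix held 129529250 unique molecular identifiers (UMIs, counted molecules) in 18026 barcodes. Of these, 14198 passed filters, and 14188 were kept after 10 marked doublets were left out. Barcodes end in 1 of 4 numbers, called libraries 1 to 4, with 9246770, 17158831, 37642375 and 65481274 UMIs. The labels speak of sorted suspensions put into 1 well and also of an index for every sample, so how the samples were kept apart, and whether a number stands for 1 sample, is not clear. Neither the labels nor the files say which labelled sample a number stands for, so no genotype or sort was compared, no p-value is given, and values by library stand alone. The kept cells included 399, 1268, 42 and 82 epithelial-like cells in libraries 1 to 4, 1791 in all, so epithelial values rest on libraries 1 and 2. These libraries also lost more barcodes to the filters (59.0% and 56.3%, against 8.75% and 4.45%) and held more haemoglobin (8.90% and 0.984% of kept UMIs, against 0.00121% and 0.0207%). Across libraries, 24 barcode sequences occurred more than once. Levels are given as CPM, the UMIs of a gene per 1000000 UMIs of its cell group, with exact 95% Poisson intervals; shares of cells have exact 95% binomial intervals, and a count of 0 is given with the level that 3 counts allow. All intervals cover counting error only. Tags near the 3′ end are not divided by gene length, and levels are compared within a gene, not between genes.

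The epithelial-like cells were divided without use of the 9 genes. A Wnt-active subset of 595 cells (median 13744.0 UMIs) carried Wif1, Notum and Nkd1 at 751, 359 and 807 CPM. A goblet-like subset had 56 cells, and a Paneth-like subset of 105 cells expressed Lyz1 at 28654 CPM together with 6 of 7 goblet markers. The absorptive-like subset of 155 cells (median 2138.0 UMIs), led by Saa1, Car4 and Ceacam20, had 4 of 8 absorptive markers detected in at least 10% of cells, and also 6 of 7 genes of the Ly6a-positive list. A further 78 cells (median 1357.5 UMIs), led by Ubd and Clca4a, expressed Ly6a at 7746 CPM. They also had 6 of 7 goblet and 4 of 4 Paneth markers detected in at least 10% of cells, so they may not be 1 kind of cell. With finer clustering, 88 cells with like leading genes had 3 goblet markers and 0 Paneth markers detected. The 78 cells were not divided further. Their depth was too low for a type name, and they are called Ly6a-high. The absorptive list summed to 1335 CPM in absorptive-like cells, 1670 in Ly6a-high and 1184 in goblet-like cells. The absorptive-like name therefore rests on part of that list. Against Ly6a-high cells, Car4 was higher in absorptive-like cells (329 against 4.49 CPM) and Krt20 lower (458 against 1419). Subsets of 130 and 100 cells are named by their leading genes, Nox1 with Cftr and Muc3 with Gsdmc4. Another 112 dividing cells with little Epcam, 273 cells with haemoglobin RNA and 162 cells with immune RNA stayed unnamed, and 25 cells were enteroendocrine-like. A summed list of 10 dissociation stress genes stood at 9029 CPM in the absorptive-like subset, 4803 in the Wnt-active, 2128 in the Paneth-like, 1713 in the goblet-like and 1414 in the Ly6a-high; its part in the results was not tested.

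Egfr (ENSMUSG00000020122, chr11:16752203-16918158 on mm10) was an epithelial transcript in these tumours. Of 387 Egfr UMIs, 92.5% lay in epithelial-like cells, which held 14.4% of all UMIs. The level there was 20.5 CPM (18.4 to 22.7), with 28.7 in library 1, 17.4 in library 2, 8.72 in library 3 from 1 UMI and 13.9 in library 4 from 6 UMIs. Cells of a small stromal cluster (82 cells) had 23.0 CPM from 8 UMIs, 6 of them in the 25 cells that carried mostly fibroblast UMIs (49.4 CPM; 18.1 to 107), and none in 44 cells with mostly endothelial UMIs, allowing up to 15.2 CPM. The interval of the fibroblast cells spans the epithelial level, so the 2 were not told apart, and the endothelial bound lies below it.

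Within the epithelium, Egfr was concentrated in the absorptive-like subset. It stood there at 157 CPM (129 to 190; 107 UMIs), with 140 in library 1 and 200 in library 2. The Ly6a-high cells had 108 CPM (69.1 to 160; 24 UMIs), 83.7 and 136 by library. Paneth-like cells followed at 30.4 CPM (22.5 to 40.2; 23.4 and 35.6), then the Muc3/Gsdmc4-led subset at 22.5, goblet-like at 15.6, Nox1/Cftr-led at 12.1 and Wnt-active at 10.9 CPM (8.77 to 13.3; 12.5 and 10.2). Thus the absorptive-like cells, 3.89% of epithelial UMIs, held 29.9% of epithelial Egfr UMIs. Their level was 14.4-fold that of Wnt-active cells (10.8 to 19.3), and 11.2-fold in library 1 and 19.7-fold in library 2. Absorptive-like and Ly6a-high cells did not differ beyond counting error (1.46-fold; 0.930 to 2.38), whereas Ly6a-high exceeded Paneth-like cells 3.54-fold (2.08 to 5.89); no later neighbour in the order differed from the next beyond counting error. The share of cells with an Egfr UMI gave the same order of the extremes at matched depth: at 1000 UMIs a cell, 14.8% of 128 absorptive-like cells (9.18 to 22.2; 27 shallower cells left out) against 1.57% of 574 Wnt-active cells (0.719 to 2.96; 21 left out). Unthinned, the shares were 33.5% and 11.8%. Averaged over all possible draws of 1000 UMIs, the expected shares were 16.4%, 8.18% in Ly6a-high, 4.01% in Paneth-like and 1.38% in Wnt-active cells. Neutrophil-like cells of libraries 1 and 2, from the same libraries as the epithelium, had an Egfr UMI in 1 of 350 cells (0.286%; median depth 1472.0 UMIs).

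**Figure D1:**
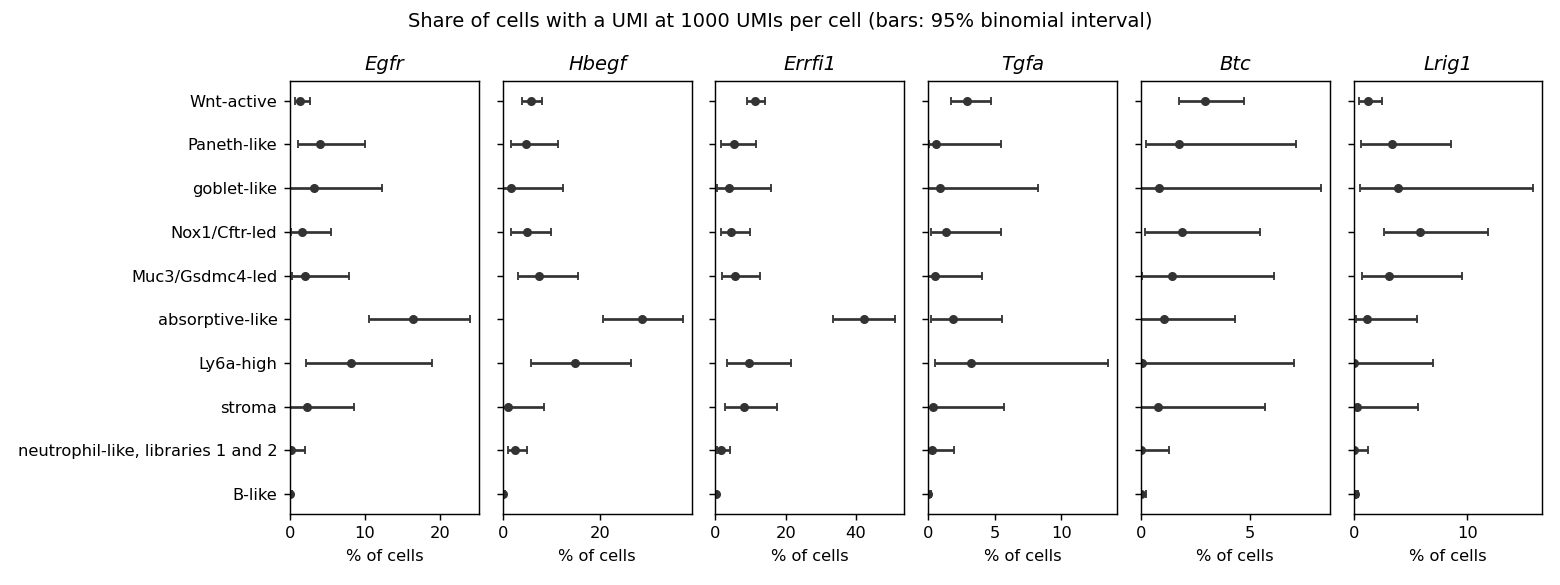
Share of cells (horizontal axis, %) with a UMI of 6 genes, expected when every cell is drawn down to 1000 UMIs, for 7 epithelial groups, stroma, neutrophil-like cells of libraries 1 and 2 and B-like cells (vertical axis); bars are exact 95% binomial intervals on the nearest whole number of cells. Egfr, Hbegf and Errfi1 peak in absorptive-like cells at 16.4%, 28.4% and 42.3%.

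How the absorptive-like cells were delimited set the size of this difference. When cells were instead gated 1 by 1 on marker genes, 104 absorptive-like cells had 60.6 CPM of Egfr against 7.54 in Wnt-active cells, and a wider Ly6a-high gate of 521 cells had 35.5. With finer clustering the absorptive-like level was 168 CPM. The Ly6a-high level was then 50.7 CPM over 189 cells, which were not the same kind of cells: 88 were led by Ubd and Clca4b, and 101 were led by Krt17 and Plat and also had 6 of 6 Wnt-active markers.

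Myeloid cells gave almost no Egfr. Monocyte/macrophage-like and neutrophil-like cells together held 5 UMIs in 5437 cells: 0 in 89 cells of library 1 (allowing up to 6.09 CPM), 1 in 287 cells of library 2, 0 in 1260 cells of library 3 (up to 0.231 CPM) and 4 in 3801 cells of library 4. C1q macrophage-like cells had 1 UMI in 1335 cells and monocyte-like cells 0 in 1442, allowing up to 0.179 CPM. Cells lacking the gene by design are among them in unknown number, so this is no level of Egfr-intact myeloid cells. B-like cells had 0 UMIs, allowing up to 0.416 CPM.

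**Figure D2:**
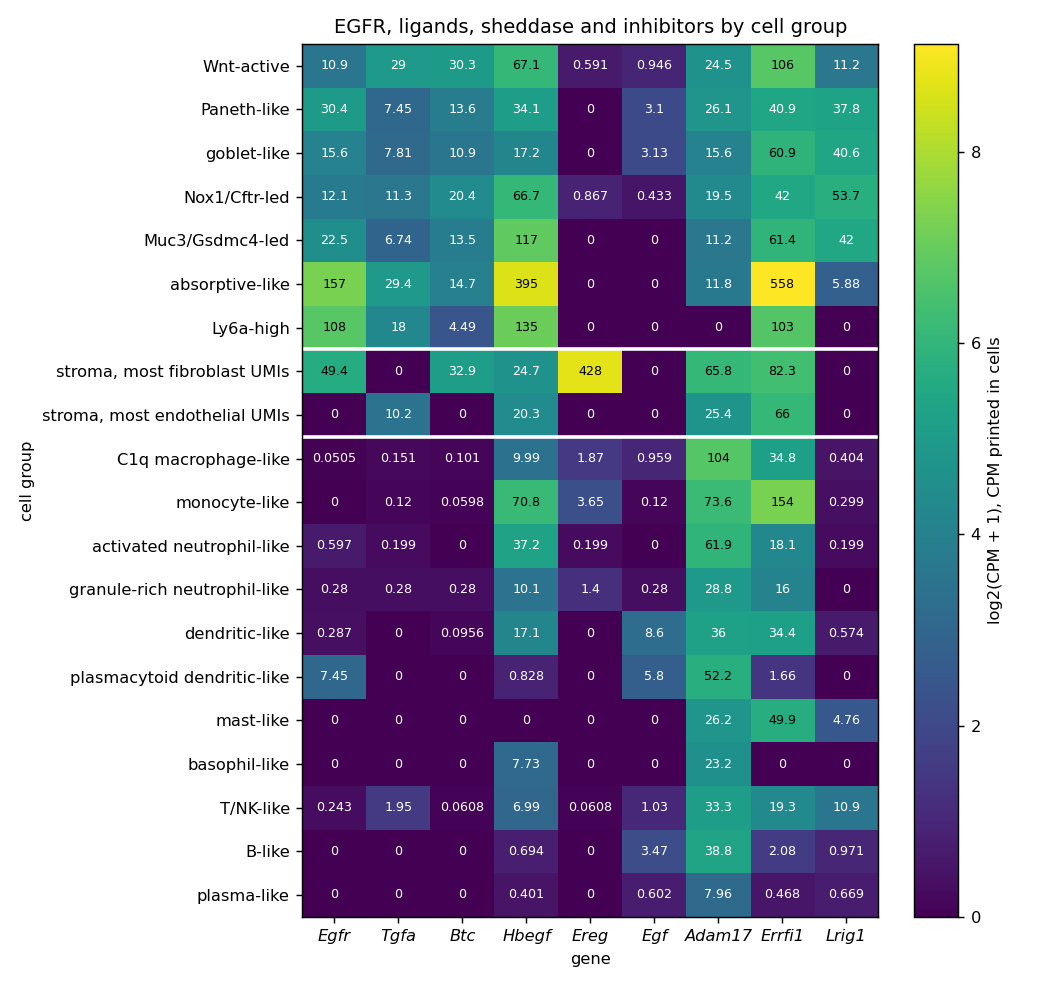
Level of the 9 genes (columns) in 20 cell groups (rows); colour is log2(CPM + 1) and the printed number is CPM, with white lines between epithelium, stroma and immune cells. Egfr, Tgfa and Btc are high in epithelial rows, and Egfr and Btc also in the fibroblast row, there from few UMIs. Ereg is high in the fibroblast row (428 CPM) and Adam17 in the macrophage-like row (104 CPM).

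Of the ligands, Hbegf (ENSMUSG00000024486), the heparin-binding form, was made by both epithelium and myeloid cells. Epithelial-like cells had 73.4 CPM (69.5 to 77.5), monocyte/macrophage-like cells 37.8 (35.8 to 39.8) and neutrophil-like cells 25.9 (22.6 to 29.6); B-like cells had 0.694. Monocyte-like cells (70.8 CPM) were near the epithelial level and 1 of their clusters, of 394 cells, reached 159 CPM, while C1q macrophage-like cells had 9.99. Activated neutrophil-like cells had 37.2 CPM and granule-rich ones 10.1. In the epithelium Hbegf peaked where Egfr did: 395 CPM (349 to 445) in absorptive-like cells, 409 in library 1 and 359 in library 2. Ly6a-high cells had 135 CPM (74.4 and 199), the Muc3/Gsdmc4-led subset 117 (177 and 73.5), Wnt-active 67.1 (57.3 and 68.5), Nox1/Cftr-led 66.7 (76.9 and 60.0), Paneth-like 34.1 (10.3 and 51.8) and goblet-like cells 17.2 (3.01 and 33.7). The absorptive-like level exceeded the next 2.93-fold (2.01 to 4.43) and the Wnt-active 5.89-fold (5.08 to 6.83). Ly6a-high did not differ from Muc3/Gsdmc4-led cells beyond counting error, nor Wnt-active from Nox1/Cftr-led cells; the other neighbours did. Its UMIs were unevenly spread, since 5 of the 155 absorptive-like cells held 48.3% of them. At 1000 UMIs a cell, 27.3% of absorptive-like and 5.75% of Wnt-active cells had a Hbegf UMI (47.1% and 26.9% unthinned), against 3.43% of unthinned neutrophil-like cells in libraries 1 and 2.

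Tgfa (ENSMUSG00000029999) and Btc (ENSMUSG00000082361), the genes of transforming growth factor alpha and betacellulin, were epithelial with another distribution. Epithelial-like cells held 88.3% of 383 Tgfa UMIs and 97.5% of 399 Btc UMIs. Most of these lay in the Wnt-active subset, 72.5% for Tgfa and 65.8% for Btc, which held 48.3% of epithelial UMIs. Tgfa stood at 29.0 CPM in Wnt-active cells (25.5 to 32.8; 34.5 in library 1 and 27.4 in library 2). In absorptive-like cells it stood at 29.4 (17.9 to 45.4), of which library 1 had 34.6 and library 2 15.8 from 3 UMIs. It was 18.0 CPM in Ly6a-high, 11.3 in Nox1/Cftr-led, 7.81 in goblet-like, 7.45 in Paneth-like and 6.74 in Muc3/Gsdmc4-led cells. No neighbours in the order of Tgfa levels differed beyond counting error, but Wnt-active cells exceeded Paneth-like cells 3.89-fold (2.19 to 7.64). Among the named epithelial subsets, Btc was highest in Wnt-active cells at 30.3 CPM (26.7 to 34.2), with 28.7 in library 1 and 30.7 in library 2. This exceeded the Nox1/Cftr-led subset (20.4 CPM, 9.61 and 27.8 by library) 1.49-fold (1.09 to 2.07). It exceeded absorptive-like cells (14.7 CPM, 12.2 and 21.1 by library) 2.06-fold (1.10 to 4.35). Paneth-like, Muc3/Gsdmc4-led and goblet-like cells had 13.6, 13.5 and 10.9 CPM, and Ly6a-high cells 4.49 from 1 UMI. With finer clustering, the wider Ly6a-high group had 40.6 CPM of Btc and Wnt-active cells 29.3. The myeloid classes held 7 Tgfa and 4 Btc UMIs.

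**Figure D3:**
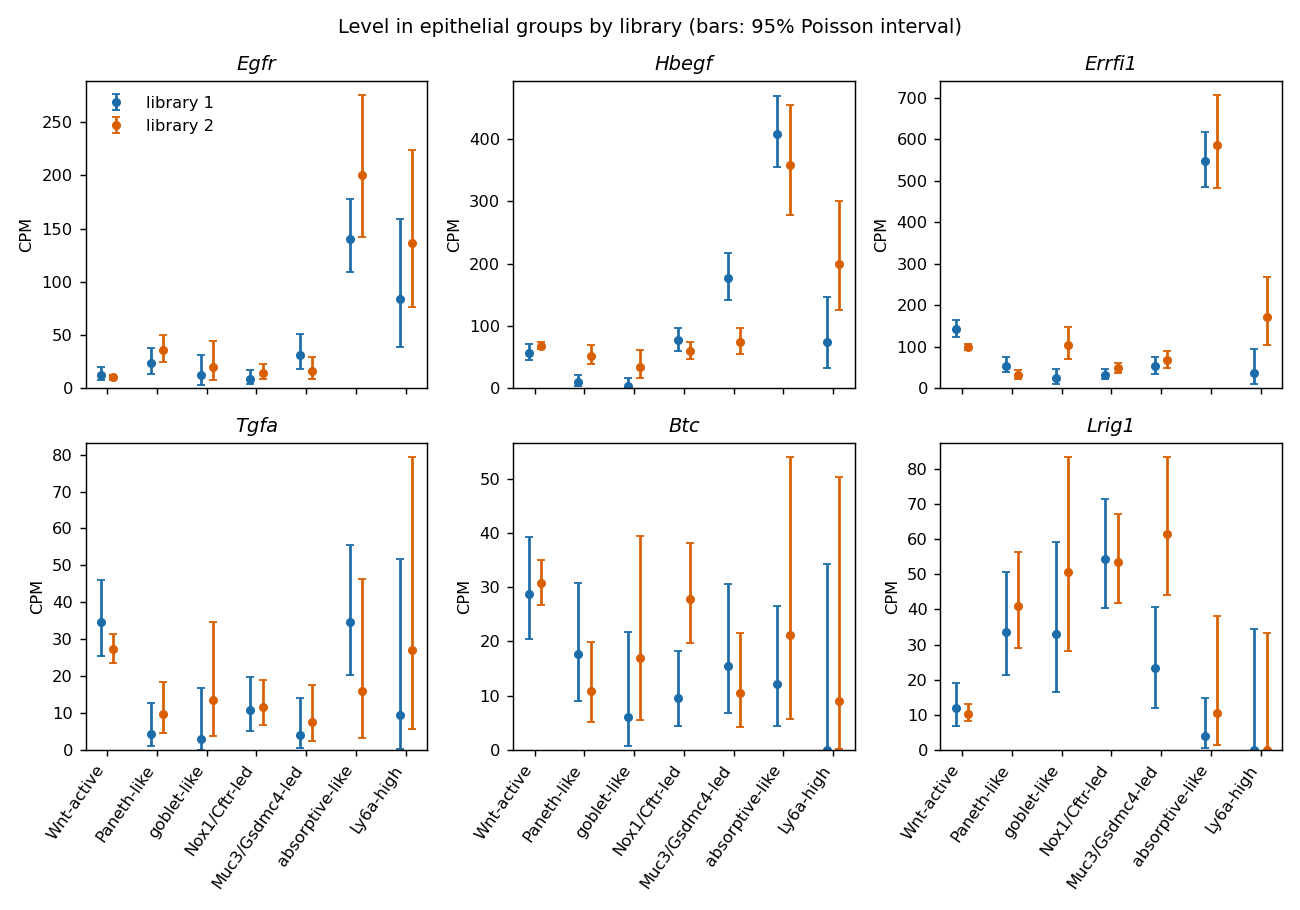
Level (vertical axis, CPM) of 6 genes in 7 epithelial groups (horizontal axis), library 1 in blue and library 2 in orange, bars giving exact 95% Poisson intervals. Egfr, Hbegf and Errfi1 are highest in absorptive-like cells in both libraries, and Lrig1 is lower in Wnt-active and absorptive-like cells than in the Nox1/Cftr-led cells of the same library.

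Ereg and Egf were scarce in the epithelium. Ereg (ENSMUSG00000029377), the gene of epiregulin, had 8 UMIs in all epithelial-like cells (0.457 CPM; 0.197 to 0.901). The stromal cluster had 52, all in 10 of the 25 cells with mostly fibroblast UMIs, at 428 CPM (320 to 561), with 40 UMIs in library 1, 12 in library 2 and 23 in 1 cell. Monocyte/macrophage-like cells held 98 Ereg UMIs in 23 of 2777 cells (12 in library 3 and 86 in library 4), 30 of them in 1 cell. Both sources therefore rest on few cells. Egf (ENSMUSG00000028017), which gave the family its name, had 18 UMIs in epithelial-like cells (1.03 CPM), of which 5 in Paneth-like cells all came from library 1, and 0 in stroma, allowing up to 8.62 CPM. Dendritic-like cells had 90 Egf UMIs, 66 of them in a cluster of 273 cells with migratory dendritic markers (26.3 CPM; 20.3 to 33.5).

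The sheddase gene Adam17 (ENSMUSG00000052593) was higher in myeloid-like than in epithelial-like cells. C1q macrophage-like cells had 104 CPM (99.6 to 109; 111 in library 3 and 101 in library 4), monocyte-like cells 73.6 (84.0 and 69.5) and activated neutrophil-like cells 61.9, against 20.4 in epithelial-like cells (18.3 to 22.6; 20.2 and 19.8 in libraries 1 and 2). Neutrophil-like cells of library 1 had 49.0 CPM (28.0 to 79.5) and those of library 2 had 59.7 (37.8 to 89.6), so a myeloid excess was also seen within the libraries that held the epithelium. Paneth-like (26.1 CPM), Wnt-active (24.5), Nox1/Cftr-led (19.5), goblet-like (15.6), absorptive-like (11.8 from 8 UMIs) and Muc3/Gsdmc4-led cells (11.2) did not differ from their neighbours in this order beyond counting error, and Ly6a-high cells had 0 UMIs, allowing up to 13.5 CPM. Wnt-active cells exceeded absorptive-like cells 2.08-fold (1.04 to 4.89).

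Errfi1 (ENSMUSG00000028967), the receptor's inducible inhibitor, was highest in the same epithelial subset as Egfr and Hbegf, but the order of the other subsets differed. Wnt-active cells lay below Paneth-like cells for Egfr (10.9 against 30.4 CPM) and above them for Errfi1 (106 against 40.9), in libraries 1 and 2 alike. Absorptive-like cells had 558 CPM (504 to 617), 548 in library 1 and 586 in library 2. Wnt-active cells had 106 CPM (143 and 98.7) and Ly6a-high cells 103 (37.2 and 172). The Muc3/Gsdmc4-led subset had 61.4 CPM, goblet-like cells 60.9 (24.1 and 105), Nox1/Cftr-led cells 42.0 and Paneth-like cells 40.9 (54.2 and 31.3). Apart from the first step and that from Ly6a-high to Muc3/Gsdmc4-led cells (1.68-fold; 1.01 to 2.70), neighbours in this order did not differ beyond counting error. The absorptive-like level was 5.24-fold the Wnt-active (4.64 to 5.92), 3.82-fold in library 1 and 5.93-fold in library 2. At 1000 UMIs a cell, 41.4% of absorptive-like and 11.7% of Wnt-active cells had an Errfi1 UMI (67.1% and 50.4% unthinned); unthinned neutrophil-like cells of libraries 1 and 2 had 3.14%. The gene was also found where Egfr was not: monocyte-like cells, with 0 Egfr UMIs, had 154 CPM of Errfi1 (148 to 160; 126 in library 3 and 166 in library 4). C1q macrophage-like cells had 34.8 and neutrophil-like cells 17.2.

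Lrig1 (ENSMUSG00000030029), the other inhibitor, had the opposite epithelial distribution. The Nox1/Cftr-led subset had 53.7 CPM (44.7 to 64.1; 54.5 in library 1 and 53.4 in library 2), the Muc3/Gsdmc4-led 42.0 (23.3 and 61.5), goblet-like cells 40.6 (33.1 and 50.6) and Paneth-like cells 37.8 (33.7 and 41.0). Wnt-active cells had 11.2 CPM (9.09 to 13.7; 11.8 and 10.3), absorptive-like cells 5.88 from 4 UMIs and Ly6a-high cells 0 UMIs, allowing up to 13.5 CPM. The only neighbours in this order that differed beyond counting error were Paneth-like over Wnt-active cells, 3.37-fold (2.40 to 4.70). Outside the epithelium T/NK-like cells held 180 Lrig1 UMIs (10.9 CPM), 29.2% of the total.

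Counted with 1 rule, a gene was called higher or lower at a 2-fold ratio of CPM, after 1 CPM was added, with at least 10 UMIs on the higher side. In epithelial-like cells against the mean of the 2 myeloid classes, 5 of the 9 genes were higher (Egfr, log2 ratio 4.11; Tgfa, 4.10; Btc, 4.40; Hbegf, 1.18, or 0.99 with 10 CPM added; Lrig1, 4.25), where 47.8% of 15866 genes were. Adam17 was lower (-1.71), where 12.9% of genes were. Errfi1 (0.87, but 1.12 without library 2 and 1.23 without library 4), Egf (0.59) and Ereg (-0.88) passed in neither direction. The median log2 ratio was 1.18 over the 9 genes and 0.93 over all genes, so the share higher was close to the background. Each epithelial subset was then set against the mean of the other 4 of the 5 marker-defined subsets, over 13103 genes; 8 of the 9 genes had 10 UMIs, Ereg being left out.

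Absorptive-like cells had 3 genes higher, Egfr (1.91), Hbegf (2.62) and Errfi1 (2.83), against 11.3% of all genes, and 2 lower, Lrig1 (-1.77) and Egf, which was at 0, against 28.9%. The calls of Egfr, Hbegf and Errfi1 in this subset held under every alternative run, but the size of the differences did not. With marker gates Hbegf stood at 166 CPM in absorptive-like and 146 in Ly6a-high cells, and Errfi1 at 253 and 139. Wnt-active cells had Btc higher (1.39; background 29.5%), a call lost with finer clustering (0.50) and with marker gates (0.68), and Egfr (-2.73) and Hbegf (-1.10) lower (background 10.9%). Goblet-like cells had Lrig1 higher (1.50; 5.78%) and 4 genes lower, Egfr, Tgfa, Hbegf and Errfi1 (27.4%). Paneth-like cells had Lrig1 higher (1.33; 6.11%) and the same 4 lower (13.9%), but Egfr turned to 0.37 there when the other subsets were summed rather than averaged. The Nox1/Cftr-led and Muc3/Gsdmc4-led subsets were not part of this comparison. They had Lrig1 at 53.7 and 42.0 CPM, against 40.6 in goblet-like and 37.8 in Paneth-like cells. The Lrig1 calls therefore hold only among the 5 marker-defined subsets. In Ly6a-high cells no gene was called higher (3.42%), Egfr lying at the limit with 1.00, and 4 were called lower (52.6%): Btc, Egf, Adam17 and Lrig1. With genes at 0 set to the level that 3 counts allow, Adam17 was at least 1.45-fold and Lrig1 at least 1.77-fold lower. Neither passed the rule, Egf gave no bound, and 1 gene, Btc, remained called. Btc had 1 UMI (4.49 CPM), so the bound was not applied to it. Its level was not told apart from that of goblet-like cells by counting error (2.44-fold higher there, 0.313 to 110). In absorptive-like cells the same bound left 1 lower gene, Lrig1. Ly6a-high cells were the shallowest subset, and the 4 lower calls are close to the share of all genes called lower there.

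Egfr and its partners were next sought in the same cells. At 1000 UMIs a cell 1514 epithelial-like cells remained (277 left out), and 49 had an Egfr UMI. Of those, 22.4% had a Hbegf UMI (11.8 to 36.6), against 6.01% of cells without Egfr (4.85 to 7.35). The Errfi1 shares were 24.5% (13.3 to 38.9) and 10.5% (8.99 to 12.2). Averaged over all draws the Hbegf shares were 22.3% and 6.41%, and those of Errfi1 32.8% and 10.6%. By library they were 23.5% and 9.76% for Hbegf in library 1, and 20.3% and 5.43% in library 2. Those of Errfi1 were 38.9% and 14.7% in library 1, and 28.7% and 9.84% in library 2. With libraries together the other ligands differed less, with expected shares of 3.57% and 1.86% for Tgfa and 1.49% and 2.13% for Btc. The Tgfa shares were 7.47% and 1.63% in library 1, but 1.44% and 1.96% in library 2. They rest on 1.23 and 0.442 expected cells with both genes.

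Within single subsets few Egfr-positive cells remained, and a higher share with Egfr was seen in several of them. In absorptive-like cells, with 21.0 Egfr-positive cells expected at 1000 UMIs, the Hbegf shares were 33.0% with and 27.5% without Egfr, and the Errfi1 shares 52.8% and 40.2%. At 2000 UMIs these were 53.7% and 35.0% for Hbegf, and 75.8% and 56.5% for Errfi1. In Wnt-active cells, with 7.93 Egfr-positive cells expected at 1000 UMIs, the Hbegf shares were 8.85% and 5.75% and the Errfi1 shares 21.6% and 11.1%. Ly6a-high cells, with 4.17 expected, had Hbegf shares of 17.7% and 14.4% and Errfi1 shares of 20.8% and 8.68%. Paneth-like cells, with 3.97 expected, had 30.9% and 3.66% for Hbegf and 26.3% and 4.52% for Errfi1, but for Errfi1 2.93% and 5.41% at 2000 UMIs. At 1000 UMIs, goblet-like cells, with 1.40 expected, had lower shares with Egfr: 0% and 1.81% for Hbegf, and 0.842% and 3.84% for Errfi1. In library 1 the Errfi1 share was also lower with Egfr in Paneth-like (1.30% and 4.85%) and Ly6a-high cells (0% and 6.31%). In library 2 it was higher with Egfr in both (32.5% and 4.51%, and 43.1% and 12.2%). In 1 draw at 1000 UMIs, 9 of 19 Egfr-positive absorptive-like cells had Hbegf (47.4%; 24.4 to 71.1) against 23.9% (16.2 to 33.0) of the others, and 9 of 19 had Errfi1 against 40.4% (31.1 to 50.2). In 1 draw at 2000 UMIs, 16 of 18 Egfr-positive absorptive-like cells had Errfi1, where 75.8% was expected over all draws, and 8 had any of the 5 ligands. No test was made, and counts this small do not settle whether a difference exists within the absorptive-like subset. The other subsets had 9 or fewer Egfr-positive cells in the draw at 1000 UMIs.

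**Figure D4:**
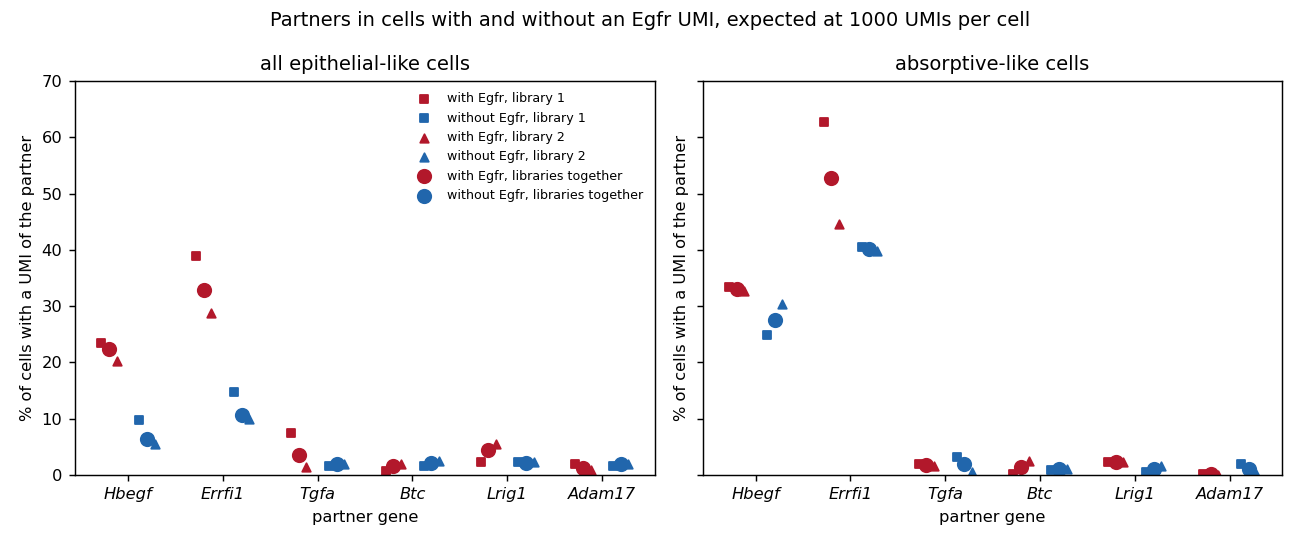
Share of cells (vertical axis, %) with a UMI of each partner gene (horizontal axis), expected at 1000 UMIs a cell, in cells with (red) and without (blue) an Egfr UMI, for all epithelial-like cells (left) and absorptive-like cells (right); squares are library 1, triangles library 2 and circles both with the few other cells. Hbegf and Errfi1 are apart on the left (22.3% against 6.41%, and 32.8% against 10.6%) and closer on the right.

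Receptor, any of the 5 ligands and Errfi1 were counted together in 31 of 155 absorptive-like cells (20.0%; 14.0 to 27.2), 28.0% in library 1 and 12.5% in library 2. Wnt-active cells had all 3 in 39 of 595 (6.55%; 4.70 to 8.85), although they were the deeper cells. At 1000 UMIs the counts were 5 of 128 absorptive-like (3.91%; 1.28 to 8.88) and 0 of 574 Wnt-active cells (0 to 0.641), and at 2000 UMIs 8 of 84 (9.52%) and 3 of 537 (0.559%). Among Ly6a-high cells 3 of 78 had all 3 unthinned, all in library 2. Tgfa and Btc were found together in 62 of 595 Wnt-active cells (10.4%; 8.08 to 13.2) and in 4 of 155 absorptive-like cells (2.58%; 0.708 to 6.48). The median depth of the Wnt-active cells was 13744.0 UMIs and that of the absorptive-like cells 2138.0, and at 1000 UMIs the pair was seen in 1 and 0 cells, so a difference in this pair was not detectable at matched depth.

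The Wnt-active subset was not uniform. One of its sub-clusters, 166 cells led by Lcn2 and Krt17, had 7 of 7 markers of the Ly6a-positive list beside 6 of 6 Wnt-active markers, and cells with like leading genes were classed as Ly6a-high with finer clustering. It had the highest level of 5 of the genes: Egfr at 23.3 CPM (17.2 to 30.9), Hbegf at 117 (103 to 133), Errfi1 at 160 (143 to 178), Btc at 47.1 (38.2 to 57.4) and Tgfa at 38.3 (30.4 to 47.8). A sub-cluster of 179 cells led by Pnliprp1 had Egfr at 7.61 CPM (4.77 to 11.5) and Hbegf at 28.0 (22.2 to 34.8). It had Btc at 33.9 (27.5 to 41.3) and Tgfa at 32.5 (26.3 to 39.8), with intervals that overlap those of the first. A further 166 cells led by Mptx2 had Egfr at 4.88 (2.60 to 8.35) and Btc at 15.8 (11.4 to 21.3), with Hbegf at 86.0. In 50 cells led by Pnliprp2, Egfr was at 6.58 (1.36 to 19.2) and Btc at 24.1 (12.1 to 43.2). The Egfr intervals of the Pnliprp1-led, Mptx2-led and Pnliprp2-led cells overlap. The 34 dividing cells had Lrig1 at 62.2 CPM (39.8 to 92.5), against 4.39 to 10.4 in the others.

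A list of 62 other pathway genes was counted by role. Between epithelial-like and myeloid-like cells 23 were called higher and 11 lower, where 47.8% and 12.9% of all genes were, and the median log2 ratio was 0.53 against 0.93 over all genes. The partner receptors Erbb2 (4.19) and Erbb3 (4.26) were epithelial, and the ERBB3 ligand gene Nrg1 (-5.80) was myeloid and stromal. The sheddase gene Adam12 (3.16) had 150 of its 157 epithelial UMIs in Wnt-active cells. Timp3 (3.70), an ADAM17 inhibitor, was higher in epithelium than in myeloid cells, and Adam19 (-4.67) lower. Timp3 was far higher in the stromal cluster, at 1019 CPM against 20.5 in epithelial-like cells. The ligand gene Nrg4 (1.15) was higher in epithelium. Of 13 feedback targets of the pathway 8 were higher, not far from the share of all genes, among them the phosphatase Dusp4 (4.03) and the transcription factor Etv4 (3.82), and 2 lower, including Dusp5 (-3.82). In the signalling cascade Hras (2.36), Sos1 (1.33) and Akt1 (1.01) were higher and Grb2 (-1.61), Cbl (-1.03) and Braf (-1.95) lower. Among further inhibitors Lrig3 (3.12) and Socs5 (1.76) were higher and Ptpn1 (-2.77) was lower.

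In absorptive-like cells against the other subsets, 13 of the 62 were higher and 5 lower, where 11.3% and 28.9% of all genes were, with a median log2 ratio of 0.16 against -0.36 over all genes. Erbb2 stood at 60.2 CPM there and 14.9 in Wnt-active cells, and Erbb3 at 91.1 and 22.7. Of the 13 feedback targets 6 were higher and 1 lower. The higher ones were Dusp4 (2.30) and Dusp5 (2.87), and Ier3 (2.69), Fosl1 (1.96), Phlda1 (1.28) and Dusp6 (1.12), the last 4 named after their values were seen. Etv5 (-2.27), likewise chosen after its values were seen, was lower in absorptive-like cells, and 487 of its 558 epithelial UMIs were in Wnt-active cells. The feedback targets therefore did not share 1 epithelial distribution. Several of them are also known as immediate early genes, and the dissociation stress list stood highest in this subset (9371 CPM in library 1 and 8141 in library 2, against 6455 and 4531 in Wnt-active cells).

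**Figure D5:**
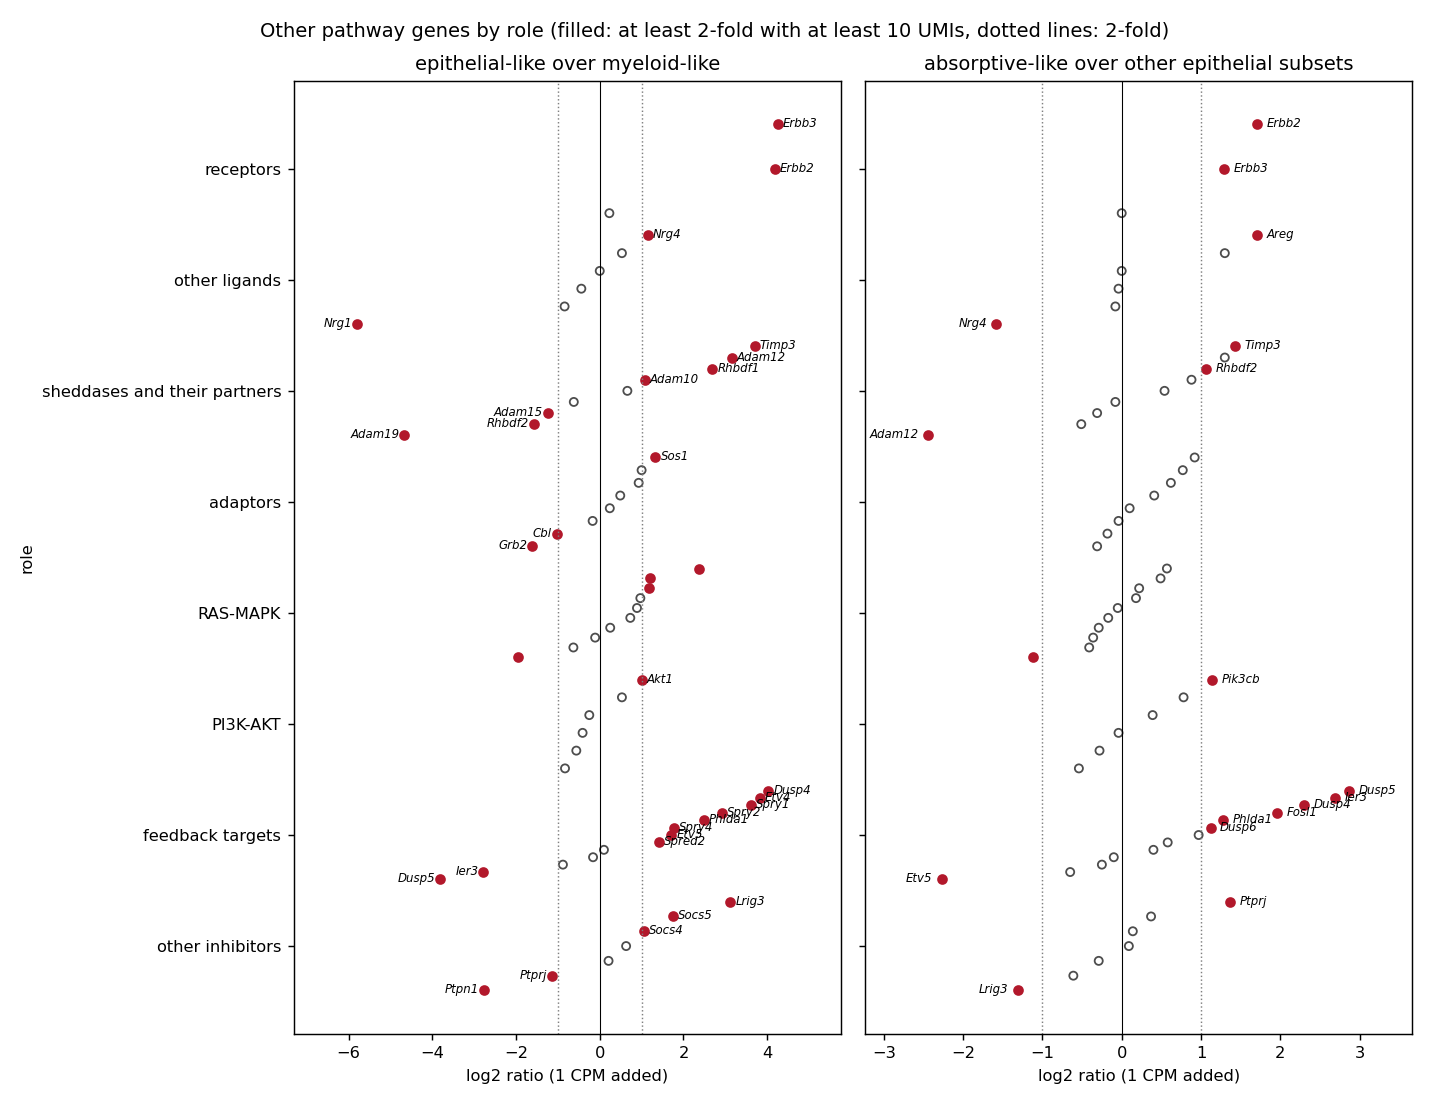
Log2 ratio (horizontal axis, 1 CPM added) of 62 pathway genes grouped by role (vertical axis), epithelial-like over myeloid-like cells on the left and absorptive-like over the other epithelial subsets on the right; filled points passed 2-fold with at least 10 UMIs and carry names except in the RAS-MAPK role. Feedback targets lie to both sides on the left (8 higher, 2 lower), and 6 of 13 are higher on the right.

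Across the 22 cell groups of at least 50 cells, the genes whose log2(CPM + 1) ran closest to that of Egfr were AA986860 (Pearson r 0.943), Erbb3 (0.940), Pcdh1 (0.940), Itga3 (0.933) and Mmp15 (0.927). For Tgfa they were Myo5b (0.961), Cldn12 (0.952), Eps8l2 (0.950), Plekha7 (0.949) and Cldn4 (0.948), and for Btc they were Ank3 (0.986), Ptprk (0.986), Arhgef26 (0.968), Mecom (0.964) and Nhsl1 (0.963). Among the 9 genes themselves Tgfa and Btc were closest to each other (0.920), Egfr was at 0.838 with Tgfa, 0.790 with Btc, 0.661 with Hbegf and 0.594 with Errfi1, and it was at -0.421 with Adam17. The groups share libraries and differ in depth, and several are parts of the same class, so these values describe likeness and carry no test.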

How the data were processed

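The authors deposited 1 matrix of raw UMI counts per gene and barcode for all 4 samples, made, per the submitters' processing notes, with Cell Ranger 3.0.2 and mm10; which annotation release was used is not given. Cells with at least 200 genes, 500 UMIs and at most 20% mitochondrial UMIs were kept. Counts were scaled to 10000 a cell and clustered without the 9 genes (scanpy 1.11.5, 2000 variable genes, 30 components, 15 neighbours, leidenalg 0.10.2 at resolution 1), and clusters were named from marker lists. The doublet caller (Scrublet) marked 10 cells, too few to have worked. Those 10 were left out and no further doublets were removed. Removal of the 625 highest scores was an alternative. Levels are summed counts scaled to CPM; shares were compared after cells were thinned to 1000 UMIs, with expected values over all draws computed from the hypergeometric distribution. Intervals are exact (scipy 1.17.1). With libraries not paired with samples, no test between groups was made. The 9 genes, the pathway list and the markers were chosen with earlier results of these data known. Up to 3 pathway genes per role are named, those past the 2-fold rule with the largest log2 ratio of epithelial over myeloid in either direction (1 such gene is not reported here); for Egfr, Tgfa and Btc the 5 most alike genes with at least 100 UMIs are named. The stromal split, the Wnt-active sub-clusters and the expected shares were added after the data were seen.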

Additional observations from a re-analysis of the deposited data

How the results depend on the processing

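Over the levels by subset, 114 alternative values moved by less than the counting interval and 21 by more; of the log2 ratios between subsets 527 kept direction and call, 26 gained a call, 28 lost it and 4 reversed; of those between epithelial-like and myeloid-like cells 103 kept it, 4 gained and 1 lost it. The cause was not tested where values changed. Pathway genes higher in epithelium numbered 13 with 10 CPM added. Of the 9 genes, those lower in epithelium numbered 2 with other classes summed and 2 at resolution 1.5. Those higher in Wnt-active cells numbered 0 with 10 CPM added, 2 with the others summed, 3 without library 2 and 0 at resolution 1.5. In Paneth-like cells they were 0 with 10 CPM added, 2 with no minimum of UMIs, 2 without library 1 and 0 with marker gates. In goblet-like cells they were 2 with no minimum and 0 with marker gates. In Ly6a-high cells 1 gene was higher with the others summed, with cells above 1% haemoglobin left out, without library 3, without library 4, at resolution 1.5 and with marker gates, against 0 in the report. Reversed ratios were Egfr in Paneth-like cells with the others summed (0.37), Btc in Ly6a-high cells at resolution 1.5 (1.16) and with marker gates (0.59), and Egf in absorptive-like cells with marker gates (0.77). Averaged over all draws, the Errfi1 shares of epithelial-like cells with and without Egfr were 39.9% and 14.4% at 2000 UMIs a cell, against 32.8% and 10.6% at 1000; single draws scattered more widely around these. Few Egfr UMIs per cell limit every joint count, and with no replicate the spread between mice is unknown.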

Other observations

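Plasmacytoid dendritic-like cells were the immune group with the highest Egfr level, 9 UMIs in 8 of 128 cells (7.45 CPM; 3.41 to 14.1). Library 3 gave 6 of these UMIs (17.7 CPM) and library 4 gave 3 (3.55 CPM). The same cells had 7 Egf UMIs (5.80 CPM) and Adam17 at 52.2 CPM, and Errfi1 at 1.66 CPM.

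T/NK-like cells held Lrig1 at 14.9 CPM in library 3 and 7.12 in library 4. They also had 32 Tgfa UMIs in 27 cells, 23 of them in 1 cluster (5.68 CPM). B-like cells had 25 Egf UMIs (3.47 CPM).

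Btc reached 36.7 CPM in the 273 epithelial-like cells with haemoglobin RNA, and 4 Btc UMIs in stroma all lay in the cells with mostly fibroblast UMIs (32.9 CPM).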
